A study of Homo sapiens with 4 samples.

Results

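Liquiritigenin (Liq), a plant flavonoid used in the study as an agonist of estrogen receptor beta (ERβ), was given to ES2 cells, a human ovarian cancer cell line. The genes described here are 10 that encode angiogenic growth factors, the secreted proteins that tumor cells use to call in and shape blood vessels. They were taken by gene symbol, not by a threshold on their values, though with earlier results of these data known, and comprise VEGFA, VEGFB, VEGFC, PGF, PDGFA, PDGFB, FGF2, ANGPT1, ANGPTL4 and ADM. All 10 were found among the 23228 genes of the count tables. ES2 cells were kept in phenol red-free medium with charcoal-stripped serum and received vehicle or 100 μM Liq for 24 h, with 2 samples in each group. The dose is the one given in the study's methods, and no other allele, agent or cell line separated the groups. Total RNA was isolated, and TruSeq libraries made from it were sequenced. The labels do not say whether the 2 samples of a group came from separate cultures, so p-values measure only the spread between these samples, which may be technical.

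Most angiogenic growth factors act through receptor tyrosine kinases on the cells of the vessel wall. The VEGF family (VEGFA, VEGFB, VEGFC and PGF) binds VEGF receptors and neuropilins on endothelial cells, VEGFA being the chief driver of sprouting and VEGFC of lymphatic growth. The PDGF ligands recruit pericytes, the mural cells that cover capillaries, and also act on fibroblasts. ANGPT1 is an agonist of the endothelial receptor TIE2, encoded by TEK, and stabilizes vessels, whereas ANGPT2 mostly opposes it. FGF2 acts through FGF receptors with heparan sulfate as a partner, ANGPTL4 is a regulator of lipoprotein lipase and vessel permeability, and ADM is a vasodilator peptide read by CALCRL with a RAMP partner. In many tumors VEGFA, ANGPTL4 and ADM are induced by hypoxia-inducible factors (HIF), and ANGPTL4 also by PPAR receptors.

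The sequences just before the start sites of 3 of these genes are shown because they share a binding motif of the early growth response (EGR) transcription factors, while 1 of the 3 passed the test for a change with Liq. Entries of the RefSeq promoter table (GRCh38.p14) were found for 7 of the 10 genes and gave 11 promoters, of which 4 belong to PDGFA. ANGPT1, PDGFB and VEGFA had no entry and were not searched. Each was placed on GRCh37 by an exact match. The motif GCGGGGGCG, searched on both strands in the 250 bases before the start, was present in 4 of these 11 promoters and in 4.72% of 35116 promoters in the table. These 4 belong to 3 genes, as PDGFA had the motif before more than 1 start. The motif is all G and C, and these 11 promoters were 68.0% to 82.8% GC. The share in the table was not matched for GC. All 11 held a GC box (GGGCGG, in 42.6% of the table), and 1, that of ANGPTL4, held the hypoxia response core ACGTG (in 18.5% of the table). Capitals mark the EGR motif on either strand, each sequence ends at the base before the start, and annotated exons were left out.
PDGFA, chr7:559484-559596, minus strand: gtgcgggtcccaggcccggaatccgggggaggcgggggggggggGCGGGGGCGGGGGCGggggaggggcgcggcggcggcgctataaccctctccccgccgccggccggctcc
VEGFB, chr11:64001825-64002055, plus strand: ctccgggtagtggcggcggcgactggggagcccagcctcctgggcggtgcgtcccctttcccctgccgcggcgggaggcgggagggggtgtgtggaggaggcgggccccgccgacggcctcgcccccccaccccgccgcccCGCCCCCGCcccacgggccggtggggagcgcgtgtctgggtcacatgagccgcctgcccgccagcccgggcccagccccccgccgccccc
ANGPTL4, chr19:8428789-8429038, plus strand: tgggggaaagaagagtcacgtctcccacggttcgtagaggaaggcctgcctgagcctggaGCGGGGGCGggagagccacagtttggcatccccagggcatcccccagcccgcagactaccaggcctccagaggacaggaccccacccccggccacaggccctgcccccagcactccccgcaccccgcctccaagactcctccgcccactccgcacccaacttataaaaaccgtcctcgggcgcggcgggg
The PDGFA sequence held 2 overlapping motifs, and the other sequences held 1 each. Of these 3 genes, PDGFA passed the test and the others did not. ANGPT1 and PDGFB, the other called genes, were not searched, so motif and calls cannot be compared over the set. A motif match is a description of letters, not a shown binding site.

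Each sample had between 34573053 and 48933893 reads on genes, 54.1% to 55.6% of the reads tallied. Scaled by these reads alone, 3 counts corresponded to 0.0613 to 0.0868 CPM, the read count scaled to library size. All other CPM given here were also TMM-normalized, so this floor is approximate for them. The replicates differed far less from each other than across groups, with a chi-square per degree of freedom of 6.49 for the vehicle pair, 11.6 for the Liq pair and 60.5 to 74.7 between groups. The epithelial genes KRT7, KRT8 and KRT18 were expressed, whereas EPCAM had 1 to 3 counts and CDH1 had 0 in every sample. The list of 10 epithelial and ovarian carcinoma markers includes VIM, a mesenchymal gene. Of the 10, 6 were tested and 5 were called. KRT7 was higher (0.51), and KRT18 (-0.24), PAX8 (-1.34), WT1 (-0.68) and VIM (-0.28) were lower on the log2 scale. The part of these markers in the results for the growth factors was not tested. ESR2, which encodes ERβ, had 4 to 14 counts per sample and was too low to test. ESR1, which encodes estrogen receptor alpha, had 17 to 34 counts and was not called (0.31, edgeR adjusted p = 0.5539).

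Liq changed 3 of the 9 angiogenic growth factor genes that could be tested, and the changes went both ways. ANGPT1 was upregulated, PDGFA and PDGFB were downregulated, and VEGFA, VEGFB, VEGFC, PGF, FGF2 and ANGPTL4 did not pass an adjusted p of 0.05. ADM did not pass the filter on low counts. Testing used edgeR's quasi-likelihood test with Benjamini-Hochberg adjustment over all 13546 genes tested. Of these, 24.0% were called, 12.6% higher and 11.3% lower with Liq. The 3 calls were 33.3% of the 9 members, so this count was not far from the background. At the same p with at least a 1.5-fold change, 2 members were called, ANGPT1 and PDGFB, against 6.45% of all genes tested (4.29% higher and 2.16% lower). Over all genes that split was 581 higher and 293 lower, and with loess offsets it turned to 350 and 397. Vehicle and Liq samples did not overlap in CPM for 6 of the 9, against 61.7% of all genes tested (31.5% higher and 30.2% lower), so that this count was close to the background. An unadjusted p under 0.05 was reached by 5 of the 9, against 36.1% of all genes. The median log2 fold change of the 9 genes was -0.20, and that of all genes tested was 0.0062. In such bulk samples, fewer cells of a kind and less RNA per cell cannot be told apart.

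**Figure D1:**
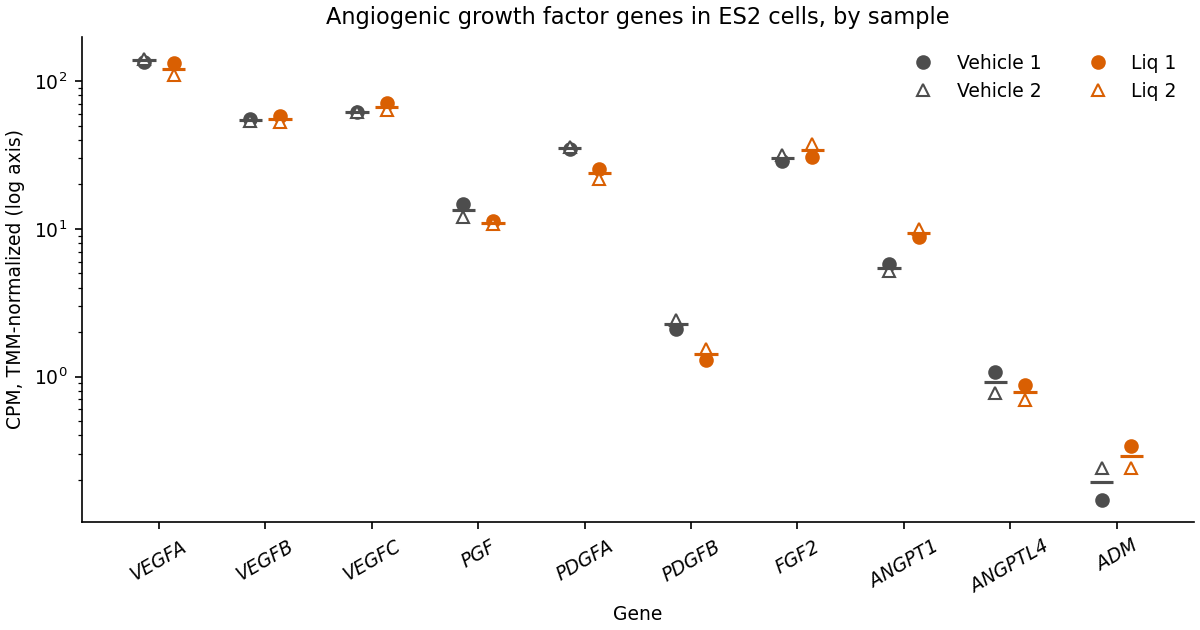
Level of each of the 10 genes in each sample, in CPM after TMM normalization on a log axis. Circles are replicate 1 and triangles replicate 2, vehicle is grey, Liq is orange, and short lines are means of 2 samples. The groups stand apart for ANGPT1, PDGFA and PDGFB and also for VEGFA, VEGFC and PGF, which were not called. They overlap for VEGFB, FGF2, ANGPTL4 and ADM.

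Added over the 10 genes, the CPM came to 339 and 345 in vehicle against 339 and 309 with Liq. The sum of Liq replicate 1 thus lay at the lower vehicle value and that of Liq replicate 2 below both. VEGFA, which was not called, made up the largest part, with 135 and 142 CPM in vehicle and 132 and 110 CPM with Liq.

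Both PDGF genes were lower with Liq. PDGFA (GRCh37 chr7:536895-559933, minus strand) encodes the A chain of platelet-derived growth factor, which acts through PDGFRA. Its level was 34.7 and 35.9 CPM in vehicle against 25.6 and 21.9 CPM with Liq. Both Liq samples lay below both vehicle samples, and the gap between the groups was wider than the spread within either. The mean fell from 35.3 ± 0.842 to 23.8 ± 2.6 CPM (SD, n = 2 each) and so fell by 32.9%. The log2 fold change was -0.57 (SE 0.10, 95% interval -0.77 to -0.38, edgeR adjusted p = 6.866e-05), or 1.49-fold, just under the 1.5-fold line.

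PDGFB (chr22:39619364-39640987, minus strand) encodes the B chain, the main pericyte-recruiting signal, which acts through PDGFRB. It had 86 and 91 counts in vehicle and 46 and 77 counts with Liq, or 2.09 and 2.43 against 1.29 and 1.53 CPM. The groups did not overlap. Its log2 fold change was -0.66 (SE 0.21, 95% interval -1.09 to -0.23, edgeR adjusted p = 0.02302), 1.58-fold. The call for PDGFB was lost without vehicle replicate 2 (-0.55, edgeR adjusted p = 0.195), without Liq replicate 1 (-0.56, adjusted p = 0.07887) and with the DESeq2 Wald test (-0.67, adjusted p = 0.1491). PDGFA stayed called with each sample left out, at -0.69 to -0.46.

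The receptors for these ligands were called in opposite directions, PDGFRA less firmly. PDGFRA, at 92.3 and 91.9 CPM in vehicle and 76.6 and 79.5 CPM with Liq, fell by 0.24 on the log2 scale (edgeR adjusted p = 0.02226). This call was lost with loess offsets (edgeR adjusted p = 0.05759), without vehicle replicate 1 (adjusted p = 0.2312) and without vehicle replicate 2 (adjusted p = 0.2044). PDGFRB had 50 and 40 counts in vehicle and 89 and 102 with Liq, and rose by 0.97 (SE 0.22, edgeR adjusted p = 0.002234), a call that held in all 12 settings. PDGFD, another ligand of PDGFRB, also rose, by 0.59 (SE 0.14, edgeR adjusted p = 0.003753), but was not called without vehicle replicate 1 (adjusted p = 0.09836).

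ANGPT1 (chr8:108261710-108510283, minus strand) was the only member called higher. Vehicle replicates gave 236 and 193 counts against 311 and 504 with Liq, or 5.74 and 5.16 against 8.75 and 10.04 CPM. Both Liq samples stood above both vehicle samples. The mean rose from 5.45 ± 0.413 to 9.39 ± 0.917 CPM (SD, n = 2 each), 1.73-fold. The log2 fold change was 0.79 (SE 0.13, 95% interval 0.53 to 1.05, edgeR adjusted p = 5.115e-05), the smallest p among the members. It stayed called with each sample left out, at 0.68 to 0.88.

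ANGPT2, the other angiopoietin expressed in these cells, fell. It had 158 and 191 counts in vehicle and 93 and 114 with Liq, a log2 fold change of -0.88 (SE 0.17, edgeR adjusted p = 0.0005671). The ratio of ANGPT1 to ANGPT2 counts was 1.49 and 1.01 in vehicle against 3.34 and 4.42 with Liq. This ratio was thus higher in both Liq samples than in either vehicle sample, and with 2 samples against 2 an exact two-sided permutation test cannot give a p below 0.3333.

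TEK, the receptor of both angiopoietins, had 2 to 6 counts per sample and was not tested. TIE1, the orphan partner of TIE2, was detected at 344 and 310 CPM in vehicle and 293 and 266 CPM with Liq, and fell by 0.22 on the log2 scale (edgeR adjusted p = 0.02272). This call was lost with upper-quartile normalization (edgeR adjusted p = 0.05379), with loess offsets (adjusted p = 0.1618), without vehicle replicate 1 (adjusted p = 0.4372) and without Liq replicate 2 (adjusted p = 0.1129). Among 9 endothelial marker genes, 4 were tested and 2, ROBO4 and TIE1, were called, both lower. Their summed level was 387 to 422 CPM in vehicle and 326 to 357 CPM with Liq, and without TIE1, which made up most of it, 77.01 to 77.95 CPM in vehicle and 60.03 to 63.16 CPM with Liq. CLDN5, ERG and EMCN had 0 counts in every sample. Among 7 pericyte and fibroblast marker genes, all 4 tested were called higher (PDGFRB, RGS5, CSPG4 and COL1A1), with a summed level of 1183 to 1265 CPM in vehicle and 1317 to 1462 CPM with Liq. Most of that sum was COL1A1, whose call was lost in 5 of 12 settings, among them without vehicle replicate 1 (edgeR adjusted p = 0.07905), without vehicle replicate 2 (adjusted p = 0.3809) and without Liq replicate 1 (adjusted p = 0.3699). Without it the sum was 19.7 to 20.7 CPM in vehicle and 32.9 to 33.3 CPM with Liq. DCN, LUM and COL3A1 had at most 1 count per sample. Of 6 leukocyte markers 1 was tested and 0 were called at an adjusted or an unadjusted p, and CD3E had 0 counts in every sample. The part of these markers in the results for the growth factors was not tested.

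**Figure D2:**
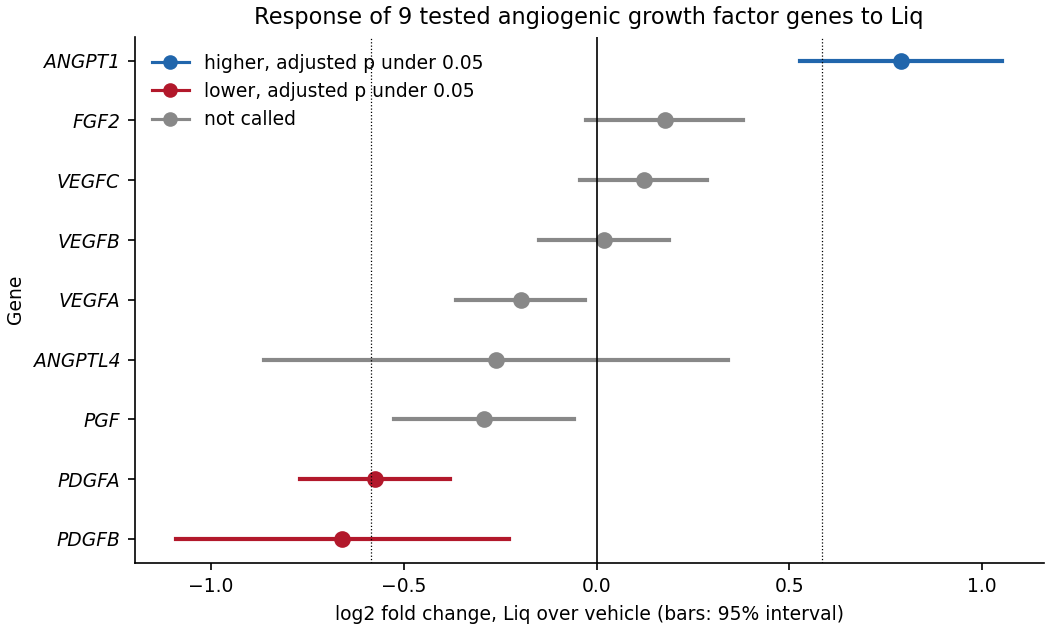
Log2 fold change of Liq over vehicle with 95% intervals for the 9 tested genes, from edgeR, n = 2 per group. Dotted lines mark 1.5-fold. ANGPT1, at 0.79, lies above the upper line, PDGFB at -0.66 lies below the lower one, and PDGFA at -0.57 lies just inside it.

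None of the 4 VEGF family genes was called. VEGFA (chr6:43737921-43754224, plus strand) had 135 and 142 CPM in vehicle and 132 and 110 CPM with Liq. The groups did not overlap, but Liq replicate 1 lay only just under vehicle replicate 1. The mean went from 138 ± 4.8 to 121 ± 15.8 CPM, a log2 fold change of -0.20 (SE 0.08, 95% interval -0.36 to -0.03, edgeR adjusted p = 0.08025). The value rested on Liq replicate 2, since it was -0.33 (edgeR adjusted p = 0.000378) without Liq replicate 1 and -0.07 (adjusted p = 0.5645) without Liq replicate 2. It was also called with no filter on low counts (edgeR adjusted p = 0.04995).

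PGF (chr14:75408537-75422329, minus strand), a ligand of the receptor FLT1, had 14.8 and 12.05 CPM in vehicle and 11.2 and 10.7 CPM with Liq. The groups did not overlap, and the vehicle samples were further apart than the Liq samples. The log2 fold change of -0.29 (SE 0.11, 95% interval -0.53 to -0.06) did not pass (edgeR adjusted p = 0.06248). It was -0.43 (edgeR adjusted p = 0.04566) without vehicle replicate 2, -0.32 (adjusted p = 0.03993) without Liq replicate 1, and -0.13 (adjusted p = 0.6808) without vehicle replicate 1. With no filter on low counts and with loess offsets it was called as well (adjusted p = 0.03988 and 0.02801).

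VEGFB (chr11:64002056-64006736, plus strand), a further FLT1 ligand, had 55.2 and 53.7 CPM in vehicle and 57.8 and 52.7 CPM with Liq. The groups overlapped, with a log2 fold change of 0.02 (95% interval -0.15 to 0.19, edgeR adjusted p = 0.888). VEGFC (chr4:177604689-177714076, minus strand) had 62.0 and 61.6 CPM in vehicle and 70.6 and 64.1 CPM with Liq. The Liq samples were both above the vehicle samples, but the log2 fold change of 0.12 (95% interval -0.04 to 0.29) did not pass (edgeR adjusted p = 0.2842). The intervals of VEGFA, VEGFB and VEGFC all lay inside 1.5-fold in either direction.

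Of the VEGF receptors, KDR, which transduces most VEGFA signaling, had 100 and 88 counts in vehicle and 48 and 71 with Liq. It was downregulated, with a log2 fold change of -0.79 (SE 0.20, edgeR adjusted p = 0.006026). The call was lost with the DESeq2 Wald test (-0.79, adjusted p = 0.06881) and without vehicle replicate 1 (-0.76, edgeR adjusted p = 0.05274). FLT1 had 0 to 2 counts per sample, and FLT4, the receptor of VEGFC, had 0 in every sample. The neuropilins, which serve as co-receptors, were both detected. NRP1 went from 366 and 367 CPM in vehicle to 397 and 403 CPM with Liq (log2 fold change 0.13, edgeR adjusted p = 0.158), and NRP2 rose from 82.7 and 79.8 CPM to 112 and 107 CPM (0.43, edgeR adjusted p = 0.0001225).

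FGF2 (chr4:123747837-123819391, plus strand) had 28.7 and 31.8 CPM in vehicle and 30.5 and 37.6 CPM with Liq. Liq replicate 1 lay between the vehicle samples and Liq replicate 2 above them. The log2 fold change was 0.18 (SE 0.10, 95% interval -0.03 to 0.38, edgeR adjusted p = 0.2059), and it was 0.32 (adjusted p = 0.007363) without Liq replicate 1 and 0.01 (adjusted p = 0.9392) without Liq replicate 2. FGF2 shares 804 exon bases, 11.8% of its exons, with NUDT6 on the opposite strand, and the sources used here do not say whether counting used the strand. NUDT6 itself rose, from 135 and 122 counts to 184 and 302 (log2 fold change 0.78, SE 0.15, edgeR adjusted p = 0.0003588). FGF2 counts were 8.75 and 9.75 times those of NUDT6 in vehicle and 5.90 and 6.25 times with Liq.

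Among other genes of the FGF family, FGF1 fell in all 12 settings and FGFR4 was higher with few reads. FGF1, which binds all FGF receptors, went from 347 and 354 counts to 91 and 150, a log2 fold change of -1.68 (SE 0.14, edgeR adjusted p = 1.564e-09). FGFR1, a main receptor of FGF2, at 157 and 157 CPM in vehicle and 171 and 156 CPM with Liq, was not called (0.06, edgeR adjusted p = 0.6085). FGFR4 rose from 14 and 9 counts to 27 and 40 (1.41, SE 0.37, edgeR adjusted p = 0.006286). It was not called with the DESeq2 Wald test (adjusted p = 0.0966) or without vehicle replicate 2 (edgeR adjusted p = 0.07349), and was not tested where 10 counts were required in every sample.

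**Figure D3:**
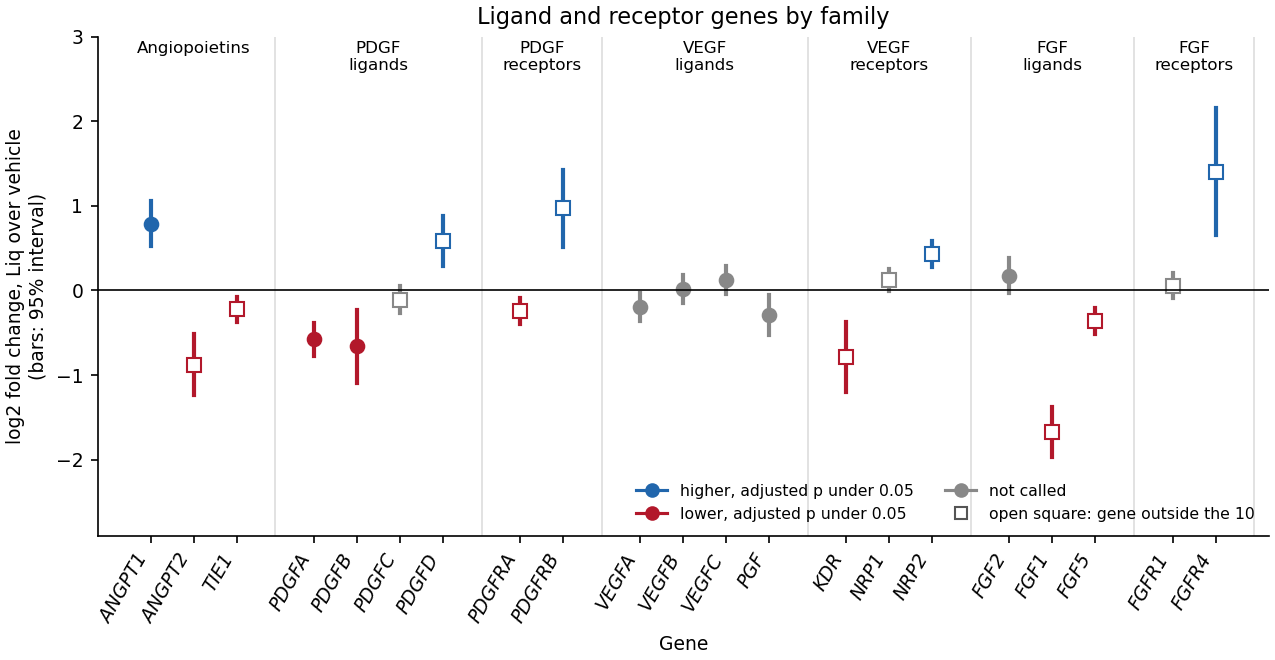
Log2 fold change of Liq over vehicle with 95% intervals (edgeR, n = 2 per group) for tested ligand and receptor genes, grouped by family. Filled circles are the 10-gene set, open squares are other genes, and color gives the call. ANGPT1 and ANGPT2 lie on opposite sides of 0, as do PDGFRA and PDGFRB, while the 4 VEGF ligands lie within 0.3 of 0.

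ANGPTL4 and ADM had few reads in every sample. ANGPTL4 (chr19:8428173-8439254, plus strand) had 44 and 29 counts in vehicle and 31 and 35 with Liq, or 1.07 and 0.775 against 0.872 and 0.697 CPM. The groups overlapped, and the log2 fold change was -0.26 (SE 0.29, 95% interval -0.86 to 0.34, edgeR adjusted p = 0.5563), an interval that includes a 1.5-fold fall. ADM (chr11:10326620-10328944, plus strand) had 6 and 9 counts in vehicle and 12 and 12 with Liq, or 0.146 and 0.240 against 0.337 and 0.239 CPM. With no filter on low counts its log2 fold change was 0.55 (SE 0.60, edgeR adjusted p = 0.6208), so a difference was not detectable at this depth. Its receptor genes were also low, with 23 to 58 counts for CALCRL (0.59, edgeR adjusted p = 0.1371) and 11 to 22 for RAMP2 (0.00, adjusted p = 0.9968), and RAMP3 had 0 counts.

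The wider set of angiogenic genes was described by lists, each count of which stands against the 24.0% of all genes tested that were called (6.45% at 1.5-fold). Of 26 other angiogenic ligands, 14 were tested and 7 were called, 2 higher and 5 lower, with a median log2 fold change of -0.05. Those of at least 1.5-fold were CTGF, a matricellular protein (-1.22, edgeR adjusted p = 1.169e-14), FGF1, APLN, the ligand of the apelin receptor (-0.80, edgeR adjusted p = 2.239e-05), and ANGPT2, all lower, and PDGFD, which was higher. CTGF was at 1954 and 1966 CPM in vehicle and 843 and 844 CPM with Liq. Of 23 receptors and co-receptors, 16 were tested and 10 were called, 6 higher and 4 lower, with a median of 0.16. GPC1, a heparan sulfate proteoglycan of the cell surface, rose from 205 and 188 to 426 and 533 counts (1.17, edgeR adjusted p = 8.233e-08), alongside PDGFRB and FGFR4, and KDR was the only one lower by 1.5-fold or more.

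Of 19 genes for ligand processing and storage, 13 were tested and 5 were called, 3 higher and 2 lower (median 0.11), against 3 called without vehicle replicate 2. PLAT, tissue plasminogen activator, fell from 1744 and 1640 CPM to 1078 and 1009 CPM (-0.70, edgeR adjusted p = 1.584e-09). HSPG2, or perlecan, which stores FGF2 in the basement membrane, rose from 53.1 and 45.7 to 98.9 and 90.1 CPM (0.93, edgeR adjusted p = 4.881e-09). Of 24 angiogenesis inhibitors, 17 were tested and 11 were called, 7 higher and 4 lower (median 0.32). The thrombospondins THBS1 (-0.62, edgeR adjusted p = 6.819e-07) and THBS2 (-1.14, adjusted p = 0.01191) fell. THBS2 was not called with the DESeq2 Wald test (adjusted p = 0.1357), without vehicle replicate 1 (edgeR adjusted p = 0.1384) or without Liq replicate 2 (adjusted p = 0.05765). SEMA3B, a semaphorin that competes with VEGF for neuropilins, rose by 1.00 (edgeR adjusted p = 5.328e-05), IGFBP7 by 0.61 (adjusted p = 0.000183) and VASH2 by 0.59 (adjusted p = 0.005239). VASH2 was not called without vehicle replicate 1 (edgeR adjusted p = 0.1025), and unlike its relative VASH1 it is better known for promoting angiogenesis.

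For the regulators best known for VEGFA, ANGPTL4 and ADM, HIF targets were called in both directions. In the joint list of PPAR targets and receptors, the called genes were higher with 1 exception. Of 38 HIF targets outside the 10 genes, 37 were tested and 17 were called, 7 higher and 10 lower, with a median of -0.02, against 11 called without vehicle replicate 1. BHLHE40, a transcriptional repressor, fell (-1.08, edgeR adjusted p = 3.114e-09), and HMOX1, heme oxygenase 1 (1.11, adjusted p = 1.23e-08), DDIT4, an inhibitor of mTORC1 (0.63, adjusted p = 1.689e-05), the aldolase ALDOC (0.81, adjusted p = 2.741e-05) and the carbonic anhydrase CA9 (1.59, adjusted p = 0.006551) rose. CA9 had 7 to 30 counts per sample and was not called without vehicle replicate 2 (edgeR adjusted p = 0.05004). Among 15 HIF subunits and oxygen-sensing genes, 12 were tested and 3 were called, 2 higher and 1 lower (median 0.05), a share of 25.0% beside 24.0% of all genes. With either vehicle replicate left out, 1 of them was called, EPAS1. This gene, which encodes HIF-2α, rose from 17.8 and 17.5 to 27.2 and 26.1 CPM (0.59, edgeR adjusted p = 4.34e-05). Of 23 PPAR targets and receptors, 18 were tested and 10 were called, 9 higher and 1 lower (median 0.25). That count fell to 3 without vehicle replicate 1, 4 without vehicle replicate 2 and 6 with the DESeq2 Wald test. With all 4 samples, the 9 called higher included the receptor genes PPARA, PPARD, PPARG and RXRA themselves. CPT1A, which brings fatty acids into mitochondria (0.76, edgeR adjusted p = 2.238e-05), and PDK4, an inhibitor of pyruvate dehydrogenase (1.00, adjusted p = 0.0017), rose by at least 1.5-fold, while ANGPTL4 did not pass.

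Levels were compared between the 10 genes only per length, as CPM divided by the exon length in kilobases (RPKM, vehicle means of 2 samples). VEGFB (27.6 ± 0.537) and VEGFC (23.6 ± 0.114) were highest, followed by VEGFA (9.58 ± 0.333), PDGFA (7.69 ± 0.184), FGF2 (4.45 ± 0.316) and PGF (2.31 ± 0.331). ANGPT1 (0.764 ± 0.058), PDGFB (0.566 ± 0.0601), ANGPTL4 (0.373 ± 0.0844) and ADM (0.0831 ± 0.0287) were lowest. The ranges of the 2 vehicle samples did not overlap between any neighbours in this order. The place of VEGFA depended on the length used. The union of its annotated exons spans 14431 bases and its MANE Select transcript 3609, and with the latter, chosen after seeing the data, VEGFA had 38.3 RPKM and ranked first. With Liq the order by exon union was the same.

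ANGPT1 was also compared with all 13537 tested genes outside the set by the distance between their centred log2 CPM over the 4 samples. The nearest were AHR, the aryl hydrocarbon receptor (distance 0.0553), TMEFF2, a transmembrane protein with follistatin-like domains (0.0663), and the LOC339535 transcript (0.0684). AHR had 825 and 702 counts in vehicle and 1074 and 1751 with Liq. The measure rests on 4 samples in 2 groups.

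**Figure D4:**
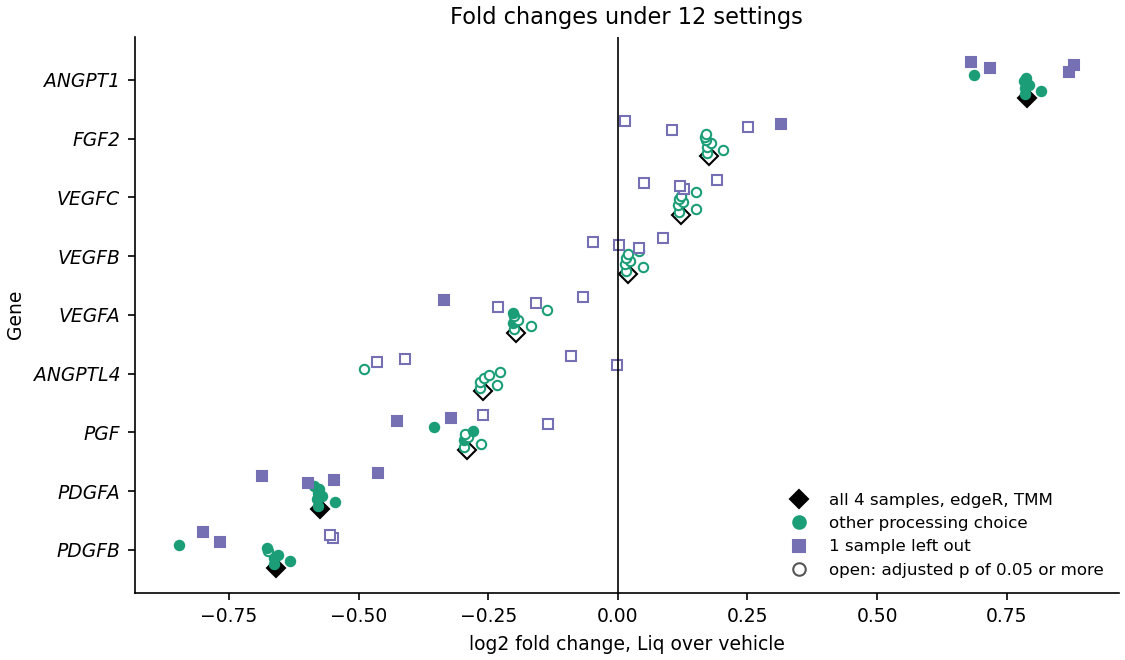
Log2 fold change of Liq over vehicle for the 9 tested genes under 12 settings. Diamonds are the values from all 4 samples with edgeR and TMM, circles other processing choices, squares fits with 1 sample left out, and open symbols have an adjusted p of 0.05 or more. ANGPT1 and PDGFA are filled throughout, and the squares of VEGFB lie on both sides of 0, from -0.05 to 0.09.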

How the data were processed

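RNA-seq of ES2 cells treated with vehicle or Liq for 24 h (2 samples each) was analysed. Samples were grouped by their labels. According to the labels and the study's methods, TruSeq libraries were read as 100-base single ends, bcl2fastq 2.17.1.14 made the reads, TopHat2 2.0.8b aligned them to hg19 (GRCh37) and HTSeq counted reads per gene; the role of each tool is taken from the methods or the tool's usual use. The authors deposited raw counts per gene, whole numbers that were neither normalized nor pooled. Tally lines, in which reads aligned to more than 1 place made up 35.6% to 36.2% of all reads, were left out, so genes with close copies are undercounted. Whether counting used the strand is not given in the sources used here.

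Counts were tested in R 4.3.3 with edgeR 4.0.16 (filterByExpr at its minimum count, 10, and total, 15; TMM, glmQLFit and glmQLFTest, no replicate block), which kept 13546 of 23228 genes, with Benjamini-Hochberg adjustment over all of them. CPM and log2 fold changes were computed from the same fit. A gene was called at an adjusted p under 0.05, also with at least 1.5-fold. The scripts were tested on simulated data. Coordinates and exon lengths are from GENCODE for GRCh37. Alternatives were DESeq2's size factors, upper-quartile normalization, loess offsets, no filter, the Wald test of DESeq2 1.42.0, a filter requiring 10 counts in all samples, a replicate block, each sample left out, and other transcript lengths.

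The genes and lists were chosen with earlier results of these data known. Named genes are the 10 growth factors, their receptors, from each list up to 4 genes in each direction with the smallest p among those called at 1.5-fold, and the 3 genes nearest to the called growth factor with the smallest p. Marker genes, ESR1, ESR2, NUDT6, PDGFC, PPARA, PPARD, PPARG and RXRA are named outside this rule, and figures also plot FGF5. PDGFRB, TIE1, EGLN1, EGLN3 and DCN are in more than 1 list.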

Additional observations from a re-analysis of the deposited data

How the results depend on the processing

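ANGPT1 and PDGFA were called in all 12 settings, at log2 fold changes of 0.68 to 0.88 and -0.69 to -0.46, and PDGFB in 9, at -0.85 to -0.55. VEGFB, VEGFC and ANGPTL4 were called in 0 settings, with adjusted p from edgeR or DESeq2 of at least 0.07784, although VEGFC reached an unadjusted p of 0.02455 without Liq replicate 2 and 0.04482 with the replicate block. VEGFB, at -0.0481 to 0.0874 with each sample left out, turned below 0 without Liq replicate 1 (-0.0481). Calls among the 9 genes numbered 5 with no filter on low counts, 4 with loess offsets, 2 with the DESeq2 Wald test, and 3 to 5 with each sample left out, the 5 being without Liq replicate 1. Calls of at least 1.5-fold numbered 1 with the DESeq2 Wald test and 1 to 3 with each sample left out, the 1 being without vehicle replicate 2. Over all genes, calls with each sample left out ranged from 1451 without vehicle replicate 1 and 1568 without vehicle replicate 2 to 3763 without Liq replicate 2, against 3245 with all samples. In these fits the lone sample of a group was assumed to vary like the other group. At 1.5-fold, 581 genes were called higher and 293 lower, against 350 and 397 with loess offsets. With the MANE Select transcript as length, 5 of 10 ranks by level stayed. Calls in a list moved by over 1.5 times in 7 of 77 recalculations, for the PPAR, HIF and ligand processing lists. The median of all genes moved between -0.0026 and 0.0335 on the log2 scale. The cause of these differences was not tested. Depth limits ADM and ANGPTL4 most, and 2 samples a group limit all genes.

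With the replicate number as a block, 5 of the 9 genes were called instead of 3, the added ones being VEGFA (adjusted p = 0.02243, edgeR) and PGF (adjusted p = 0.03654, edgeR), and over all genes 4795 were called. Deviations of same-numbered samples from their group means correlated at 0.0483 across genes. This correlation counts genes with few, noisy reads as much as others, so it cannot decide on a pairing. The labels give no shared batch or day.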
